A study of Mus musculus with 36 samples.

Results

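The aminoacyl-tRNA synthetases, the enzymes that join each amino acid to its tRNA, were followed by RNA-seq in mouse heart. Members were taken by gene symbol: 36 were listed, 20 cytosolic and 16 mitochondrial, the latter with a symbol ending in 2. The table of 32750 symbols held 34 of them, 18 cytosolic and 16 mitochondrial, and Farsa and Iars were not analysed here. Where a symbol had several rows, the row with the highest mean level was used. Levels are FPKM, fragments per kilobase of transcript scaled to the mapped total of the library, so levels of different genes are compared per length. All 34 members passed the filter on low levels in each fit, and none was listed at 0 in any library.

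The 36 libraries fell into 16 groups, all of CD-1 mice. The explants were adult cardiomyocytes, dissociated and collected at 0, 24, 48 and 72 h of culture, with 2 libraries at each time. Ventricular myocardium was taken from unoperated mice at postnatal days 0, 4 and 7 (P0, P4, P7) and from adults, and from mice 1 or 7 days after cardiac resection or a sham operation, with 2 libraries per group. Cardiomyocytes isolated on magnetic (Miltenyi) columns came from P0 and P4 hearts and from hearts 7 days after resection or sham, with 3 libraries per group. The labels give no strain other than CD-1, no transgene, and neither the age at operation nor the age of the adults. They do not say whether replicates came from separate animals, so p-values measure the spread between these libraries, which may be technical. Between 10454 and 13134 gene models reached 1 FPKM in a library. Sequencing depth is unknown, because the values were not whole multiples of a read.

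Cardiomyocyte markers dominated the freshly dissociated explants, where 6 of 8 listed markers summed to between 17981 and 22242 FPKM, although Myh6 was listed at 0 in replicate 2 of the 0 h group. The ventricular libraries carry the cell type label cardiomyocytes as well, but are tissue: fibroblast markers summed to between 936 and 1189 FPKM at P0 and between 382 and 399 FPKM in the adult. In isolated cells of the day 7 resection group, markers of lung epithelium summed to between 179 and 1173 FPKM, against 0.435 to 2.73 FPKM in the matching sham group. In tissue and mixed cells, fewer cells of a type and less RNA per cell cannot be told apart.

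Most synthetases charge tRNA with a single amino acid, and nuclear genes encode the enzymes of both compartments. The cytosolic enzymes supply charged tRNA for translation on cytosolic ribosomes. Several of them, with scaffold proteins, form the multisynthetase complex. The mitochondrial enzymes, imported after synthesis, charge the tRNAs encoded by the mitochondrial genome for translation of respiratory chain subunits. Gars and Kars encode enzymes for both compartments. ATF4, a transcription factor induced when the kinases of the integrated stress response phosphorylate eIF2α, is known to act on many cytosolic synthetase genes together with C/EBP proteins, through composite sites.

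Promoters of the members are shown because the explant values below split by compartment. A RefSeq table (mouse build GRCm38.p6) gave windows from 250 bases before to 50 bases after the start of transcription for 11 of 18 cytosolic and 15 of 16 mitochondrial members. The core of the ATF4 and C/EBP composite site, TGATGNAA, was sought on both strands. It was found in 4 of 11 cytosolic members with a window (Aars, Gars, Tars and Yars) and in 0 of 15 mitochondrial ones. Of all 32851 RefSeq windows, 3.97% held it. Members are counted once here, while that share counts windows, and Aars2 had 2 windows. Capitals mark the matched letters, printed 5′ to 3′ on the strand of the gene.
Aars (chr8:111033685-111033782, plus strand): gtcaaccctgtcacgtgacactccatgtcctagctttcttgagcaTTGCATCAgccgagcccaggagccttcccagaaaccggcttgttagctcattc
Gars (chr6:55037926-55038000, plus strand): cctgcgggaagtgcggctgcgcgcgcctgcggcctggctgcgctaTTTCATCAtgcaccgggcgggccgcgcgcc
Tars (chr15:11399659-11399718, minus strand): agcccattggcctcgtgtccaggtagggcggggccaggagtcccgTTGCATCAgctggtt
Yars (chr4:129189895-129189924, plus strand): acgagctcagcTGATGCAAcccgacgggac
The Aars window held 2 matches, and 1 is shown. Counted from the start of transcription, the matches shown began at base -112 in Aars, -30 in Gars, -15 in Tars and 3 in Yars.

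A core of the NRF1 site, GCGCATGCG, was sought on both strands. It was found in 0 of 11 cytosolic and 2 of 15 mitochondrial members with a window, against 1.75% of all windows. NRF1 is a transcription factor known for genes of mitochondrial function. The matches lay in Vars2 and Wars2 and are shown to set beside the cytosolic windows. The Vars2 window held 2 matches, and 1 is in capitals.
Vars2 (chr17:35667593-35667684, minus strand): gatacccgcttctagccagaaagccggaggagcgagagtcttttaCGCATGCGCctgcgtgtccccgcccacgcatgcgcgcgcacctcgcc
Wars2 (chr3:99140981-99141079, plus strand): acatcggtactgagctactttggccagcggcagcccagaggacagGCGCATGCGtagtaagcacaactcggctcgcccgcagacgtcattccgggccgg
The E-box CACGTG, a palindrome bound by MYC and related proteins, was found in 3 cytosolic windows (Aars, Tars and Farsb) and in 1 mitochondrial window (Ears2), against 7.15% of all windows. Windows for Cars, Hars, Lars, Nars, Rars, Vars, Wars and Pars2 were not analysed here. A match is a description of letters and says nothing of binding.

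In cultured adult cardiomyocytes, the cytosolic synthetase genes rose and most mitochondrial ones did not pass the test. At 72 h against 0 h, 17 of 18 cytosolic members and 1 of 16 mitochondrial members (Rars2) were higher, and none of either was lower, at an adjusted p under 0.05 in limma (two-sided, Benjamini-Hochberg over 12181 genes). Of all genes tested, 46.9% were higher and 9.10% lower, so the cytosolic share lay above the background and the mitochondrial share below it. The median log2 change was 2.07 over the cytosolic members, 0.17 over the mitochondrial members and 0.76 over all genes. All 18 cytosolic members lay above the median of all genes, Kars and Dars barely, and 1 of 16 mitochondrial members did. The cytosolic count was 15 with a pseudocount of 0.1 and with median-of-ratios scaling. The mitochondrial count was 0 with that pseudocount and with quantile normalization, 3 with a single fit of all libraries, and 9 with no filter on low genes, where the median of all genes was 0.072. Libraries did not overlap between 0 h and 72 h for 18 cytosolic members, all higher at 72 h, whereas 4 mitochondrial members were higher without overlap and 3 lower, against 62.3% and 14.4% of all genes.

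**Figure D1:**
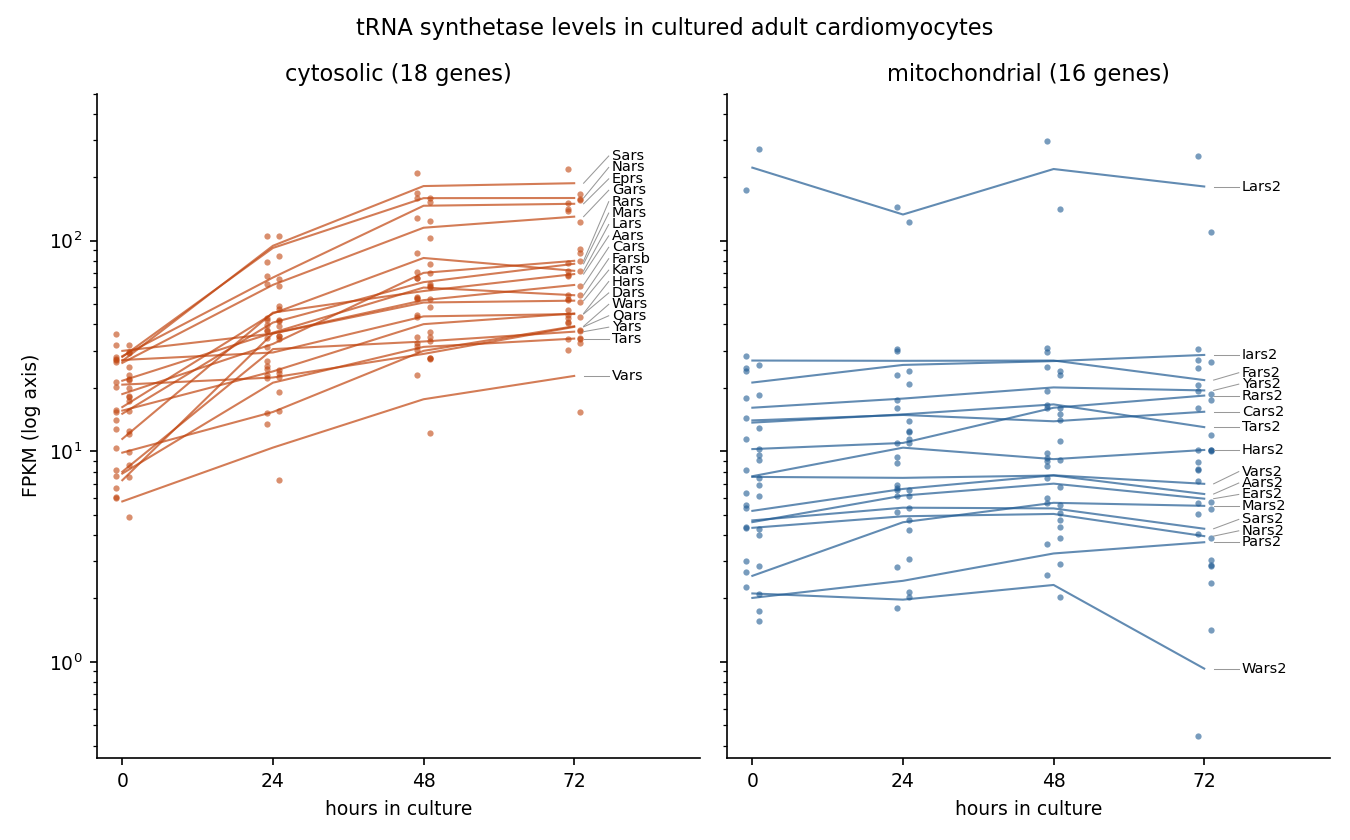
FPKM on a log axis against hours in culture for the 18 cytosolic (left) and 16 mitochondrial (right) members. Points are single libraries (2 per time) and lines join group means. Sars, Nars and Eprs reached 187, 159 and 150 FPKM in the mean at 72 h, while most mitochondrial lines stayed nearly level.

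The rise was in large part present after 1 day. At 24 h, 11 of 18 cytosolic and 0 of 16 mitochondrial members were higher in limma, against 15.5% of all genes, and none was lower, against 2.60%. The 11 were Cars, Aars, Yars, Sars, Nars, Lars, Mars, Tars, Eprs, Gars and Farsb, with log2 changes from 2.17 (Cars) to 0.73 (Farsb). Among all 34 members 14 had an unadjusted p under 0.05, and no mitochondrial member was among them. With the replicate number as a block 14 cytosolic members passed, Hars, Rars and Vars in addition. At 48 h, 16 cytosolic members and Rars2 were higher, against 35.3% of all genes, and none was lower, against 7.23%. With the block 18 cytosolic members passed, and Mars2 with Rars2. Shares of all genes called with the block are not given here, so the block counts have no background beside them. Median log2 changes at 24 and 48 h were 1.21 and 1.92 over the cytosolic members, 0.15 and 0.27 over the mitochondrial members, and 0.37 and 0.59 over all genes.

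Between 24 h and 48 h, 15 cytosolic members rose further without overlap of libraries and 0 fell, while 2 mitochondrial members (Pars2 and Rars2) were higher and 1 (Hars2) lower. Of all genes, 35.4% were higher and 13.8% lower by that measure. From 48 h to 72 h, 3 cytosolic members were higher (Mars, Qars and Wars) and 1 lower (Lars), and 2 mitochondrial members were higher and 2 lower, against 25.9% and 10.2% of all genes. The median over cytosolic members was 16.9 ± 1.85 FPKM at 0 h, 36.6 ± 1.03 at 24 h, 55.1 ± 1.95 at 48 h and 55.9 ± 2.79 at 72 h (SD, n = 2). Over mitochondrial members it was 7.23 ± 0.0657, 8.94 ± 0.255, 8.74 ± 1.15 and 8.69 ± 1.13 FPKM at the same times.

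Cars, which charges tRNA with cysteine (ENSMUSG00000010755, chr7:150743134-150785995 in mm9), had the largest log2 change of the 34 members at 72 h. It measured 5.99 and 8.58 FPKM at 0 h, 31.3 and 41.3 at 24 h, 44.4 and 60.0 at 48 h, and 43.0 and 80.2 at 72 h. The mean went from 7.28 ± 1.83 to 61.6 ± 26.3 FPKM (SD, n = 2), or 8.46-fold, a log2 change of 2.87 (SE 0.35, adjusted p 0.00096 in limma). All later libraries lay above both 0 h libraries, although the 72 h libraries differed widely from each other. Sars, the serine enzyme (ENSMUSG00000068739, chr3:108227782-108248127 in mm9), measured 31.9 and 21.8 FPKM at 0 h, 105 and 84.4 at 24 h, 211 and 153 at 48 h, and 218 and 157 at 72 h. Its mean rose from 26.8 ± 7.15 to 187 ± 43.7 FPKM (log2 change 2.76, SE 0.29, adjusted p 0.00069 in limma), the highest level of any cytosolic member at that time. Aars, the alanine enzyme (ENSMUSG00000031960, chr8:113557043-113581564 in mm9), measured 10.4 and 12.5 FPKM at 0 h, 42.2 and 48.9 at 24 h, 52.9 and 62.4 at 48 h, and 78.1 and 60.7 at 72 h. Its means were 11.4 ± 1.55 and 69.4 ± 12.3 FPKM, and the log2 change of 2.49 had an SE of 0.23 and an adjusted p of 0.00044 in limma.

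Nars, the asparagine enzyme, rose from 26.4 and 29.7 FPKM at 0 h to 79.6 and 105 at 24 h, 159 and 160 at 48 h, and 152 and 167 at 72 h (log2 change 2.47 at 72 h, adjusted p 0.00039 in limma). Its replicates were close at 0, 48 and 72 h and further apart at 24 h, and no 48 h or 72 h library lay near the 0 h values. Yars, the tyrosine enzyme, went from 6.08 and 9.91 FPKM to 27.0 and 34.2 at 24 h, 31.5 and 34.9 at 48 h, and 41.1 and 32.8 at 72 h (log2 change 2.10). Most of its change was there at 24 h. Gars, the glycine enzyme of both compartments, measured 27.5 and 25.0 FPKM at 0 h, 62.5 and 60.9 at 24 h, 128 and 103 at 48 h, and 138 and 122 at 72 h (log2 change 2.26). Tars, the threonine enzyme, measured 8.16 and 7.51 FPKM at 0 h, 23.1 and 19.2 at 24 h, 34.8 and 27.8 at 48 h, and 34.2 and 34.3 at 72 h (log2 change 1.999). Aars, Gars, Tars and Yars are the 4 members with the composite core, of 11 cytosolic windows searched. Among those without it, Sars, Eprs and Mars rose more than Gars, Yars and Tars, while Dars, Kars, Qars and Farsb rose less. The windows of Nars and Cars were not analysed. A link between the core and the size of the change was not tested.

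Wars, the tryptophan enzyme, was slower: 7.64 and 12.1 FPKM at 0 h were followed by 15.2 and 15.5 at 24 h, 32.5 and 27.4 at 48 h, and 44.4 and 34.1 at 72 h (log2 change 1.91). Hars, the histidine enzyme, measured 15.7 and 15.5 FPKM at 0 h, 24.5 and 23.4 at 24 h, 43.4 and 36.9 at 48 h, and 47.0 and 43.3 at 72 h (log2 change 1.47). Farsb, a subunit of the phenylalanine enzyme, measured 20.3 and 23.0 FPKM at 0 h, 37.7 and 35.4 at 24 h, 66.8 and 53.0 at 48 h, and 55.1 in both 72 h libraries (log2 change 1.31). All 3 stood above their 0 h libraries at each later time. The valine enzyme gene Vars was the least even, with 6.70 and 4.86 FPKM at 0 h, 13.5 and 7.28 at 24 h, 23.1 and 12.2 at 48 h, and 30.3 and 15.3 at 72 h. Replicate 1 was the higher at every time, and the log2 change of 1.75 at 72 h (adjusted p 0.013 in limma) passed the test in neither of 2 fits, without replicate 2 of the 0 h group or without replicate 1 of the 72 h group.

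Of the 8 enzymes of the multisynthetase complex, 7 were in the table, and 6 of these were higher at 72 h, with a median log2 change of 2.05 over the 7. Over the 11 cytosolic members outside the complex the median was 2.10, and 11 of 11 were higher. At 24 h the medians were 0.75 and 1.32, with 3 of 7 and 8 of 11 higher. Eprs, the joint glutamate and proline enzyme, measured 27.1 and 29.4 FPKM at 0 h, 68.3 and 65.4 at 24 h, 169 and 124 at 48 h, and 142 and 158 at 72 h (log2 change 2.36). Lars, for leucine, measured 14.1 and 18.3 FPKM at 0 h, 42.7 and 47.5 at 24 h, 87.7 and 77.9 at 48 h, and 72.0 in both 72 h libraries (log2 change 2.09). Both had passed at 24 h and peaked or levelled by 48 h. Rars, for arginine, measured 15.4 and 21.9 FPKM at 0 h, 25.3 and 39.4 at 24 h, 70.8 and 69.9 at 48 h, and 68.8 and 91.7 at 72 h (log2 change 2.05). The methionine enzyme gene Mars measured 12.8 and 17.3 FPKM at 0 h, 39.9 and 41.8 at 24 h, 66.4 and 60.7 at 48 h, and 68.2 and 87.1 at 72 h (log2 change 2.30). Mars overlaps Ddit3 by 67 bases, and Ddit3 went from 20.9 to 86.0 FPKM in the mean, so reads in the overlap are uncertain.

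The other 3 members of the complex moved least of the cytosolic class. Kars, the lysine enzyme of both compartments, measured 27.9 and 32.0 FPKM at 0 h, 37.3 and 35.1 at 24 h, 53.4 and 48.3 at 48 h, and 52.8 and 51.0 at 72 h (log2 change 0.78, adjusted p 0.011 in limma). Qars, for glutamine, measured 21.4 and 20.005 FPKM at 0 h, 22.3 and 22.5 at 24 h, 30.1 and 27.8 at 48 h, and 40.8 and 37.1 at 72 h (log2 change 0.88, adjusted p 0.0064). Their replicates were tight, and their changes were close to the median of all genes. Kars lost its call without replicate 1 of the 0 h group. Dars, for aspartate, measured 36.2 and 18.1 FPKM at 0 h, 34.5 and 24.4 at 24 h, 54.1 and 33.3 at 48 h, and 52.2 and 37.5 at 72 h. Its log2 change of 0.76 (SE 0.39) had an adjusted p of 0.13 in limma, and of 0.0042 with the replicate number as a block, since replicate 1 was the higher at every time.

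Rars2, the mitochondrial arginine enzyme (ENSMUSG00000028292, chr4:34562205-34607416 in mm9), measured 11.4 and 9.08 FPKM at 0 h, 10.93 and 10.97 at 24 h, 16.1 in both 48 h libraries, and 19.3 and 17.4 at 72 h. Its log2 change at 72 h was 0.79 (SE 0.20, adjusted p 0.013 in limma), near the median of all genes. The call was lost without replicate 2 of the 0 h group or without replicate 1 of the 72 h group. With the replicate block 4 mitochondrial members passed at 72 h: Rars2, Iars2, Mars2 and Pars2. The share of all genes called with the block is not given here. The other 15 mitochondrial members had log2 changes between -0.71 and 0.75. Mars2, for methionine, was the highest of these, at 3.02 and 2.10 FPKM at 0 h and 8.13 and 2.88 at 72 h, so its replicates parted. Wars2, for tryptophan, was the lowest, at 2.67 and 1.56 FPKM at 0 h and 0.443 and 1.41 at 72 h (log2 change -0.71, adjusted p 0.088 in limma).

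Lars2, the mitochondrial leucine enzyme, had the highest level of any member in the explants at 0 h, 173 and 271 FPKM, and measured 252 and 110 FPKM at 72 h. The order of its replicates switched and the groups overlapped (log2 change -0.38, adjusted p 0.52 in limma). A small gene model, AC125254.1, overlaps Lars2 by 89 bases and measured 46.8 and 431 FPKM at 0 h, so the Lars2 level is uncertain. Between these extremes, Yars2 measured 24.8 and 7.43 FPKM at 0 h and 27.0 and 11.9 at 72 h, Fars2 28.4 and 25.6 and then 24.8 and 18.7, and Iars2 24.0 and 18.4 and then 30.8 and 26.6. Of these, Fars2 was lower and Iars2 higher at 72 h without overlap of libraries, and neither passed the test. Iars2 overlaps Rab3gap2 by 2019 bases, and Rab3gap2 had means of 4.18 FPKM at 0 h and 17.1 at 72 h, so the Iars2 level is uncertain.

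**Figure D2:**
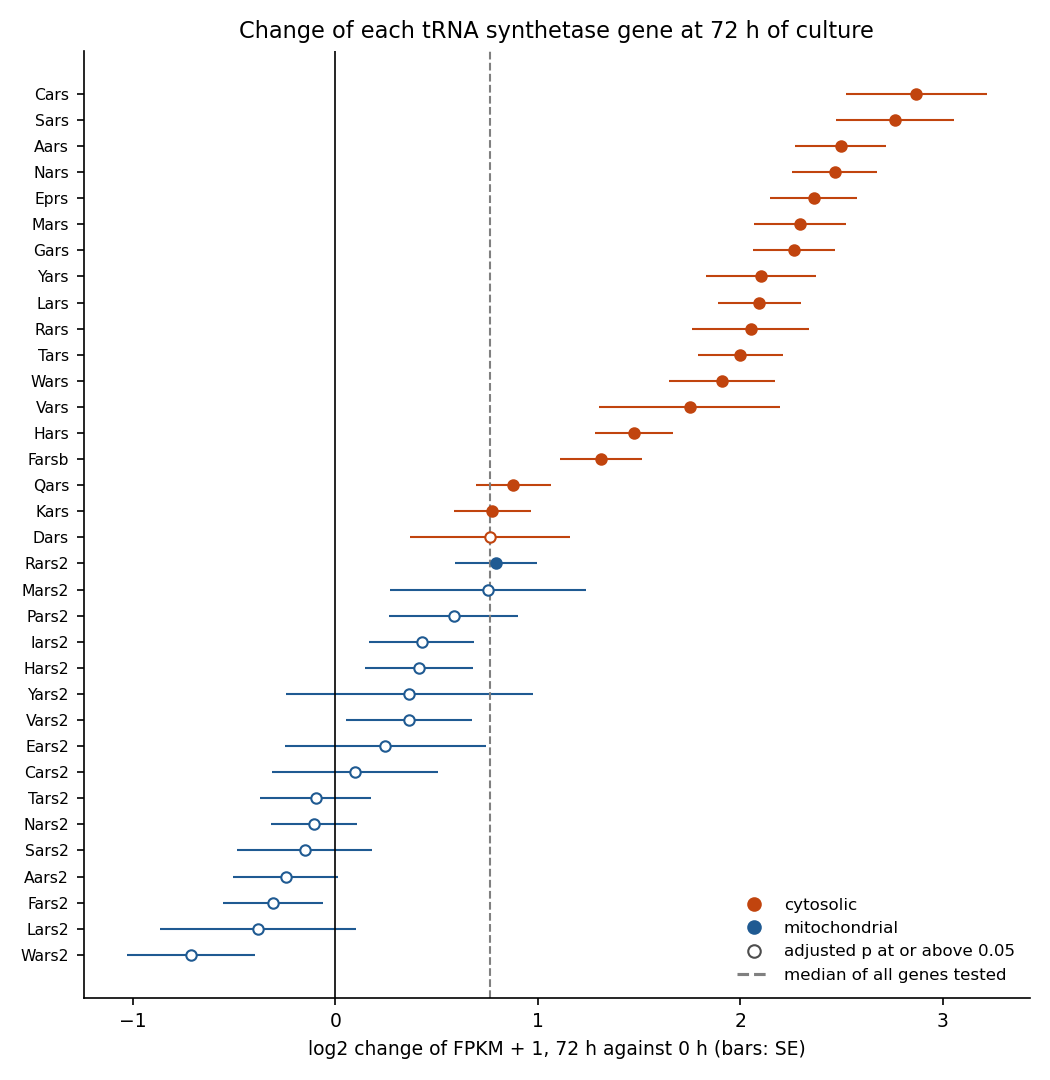
Log2 change of FPKM + 1 at 72 h against 0 h for each of the 34 members, with SE bars (n = 2 per group). Filled points have an adjusted p under 0.05 in limma, and the dashed line is the median of all genes, 0.76. The cytosolic points run from 0.76 (Dars) to 2.87 (Cars), and the mitochondrial points from -0.71 (Wars2) to 0.79 (Rars2).

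Most genes moved upward on the FPKM scale in culture, so scaling matters for the small changes. With median-of-ratios scaling, which puts the median of all genes near 0, 13 cytosolic members stayed higher at 72 h and 6 mitochondrial members were lower: Aars2 (-1.05), Fars2 (-1.19), Nars2 (-0.85), Sars2 (-0.90), Tars2 (-0.96) and Wars2 (-1.24 on the log2 scale). With quantile normalization 14 cytosolic members were higher, and Aars2, Fars2, Nars2, Sars2, Tars2 and Wars2 were again lower. Kars, Qars, Vars and Rars2 lost their call under both scalings, and Farsb under the first. Kars (-0.12), Qars (-0.011) and Rars2 (-0.066) changed sign under the first. The mitochondrial median at 72 h was -0.64 and -0.49 under the 2 scalings, against 0.041 and 0.12 over all genes. Shares of all genes called under either scaling are not given here, so the scaled counts have no background beside them. At 24 h, 8 cytosolic members were higher under median-of-ratios and 10 under quantile scaling. The 11 calls dropped to 0 to 6 when a library of the 0 h or 24 h group was left out: 0 without replicate 2 and 1 without replicate 1 of the 24 h group, and 3 without replicate 1 and 6 without replicate 2 of the 0 h group.

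Ratios of the cytosolic to the mitochondrial enzyme for the same amino acid, taken within a library, do not depend on its scaling. In 15 of 15 pairs both 72 h ratios lay above both 0 h ratios. The numerators are cytosolic members already found higher at 72 h without overlap, so this count is not separate support. No share for ratios of other genes is given here. The change of the mean log2 ratio ran from 1.06 (Hars over Hars2) to 3.38 (Wars over Wars2), with a median of 2.12. Wars over Wars2 was 2.86 and 7.75 at 0 h and 100.2 and 24.1 at 72 h, where the higher ratio came from the library with 0.443 FPKM of Wars2. Without that library the change for this pair was 2.35. Eprs served in 2 pairs, with Ears2 and with Pars2. Sars over Sars2 was 5.94 and 5.41 at 0 h and 38.3 and 54.6 at 72 h. Nars over Nars2 was 6.01 and 6.97 and became 37.6 and 43.2. Both pairs thus moved with close replicates and far beyond their spread. Tars over Tars2 started below 1, at 0.566 and 0.580, and ended at 2.14 and 3.42. Lars over Lars2 stayed below 1, at 0.0816 and 0.0674 at 0 h and 0.286 and 0.656 at 72 h. For Mars over Mars2 the ratios, 4.24 and 8.26 and then 8.39 and 30.3, nearly met.

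**Figure D3:**
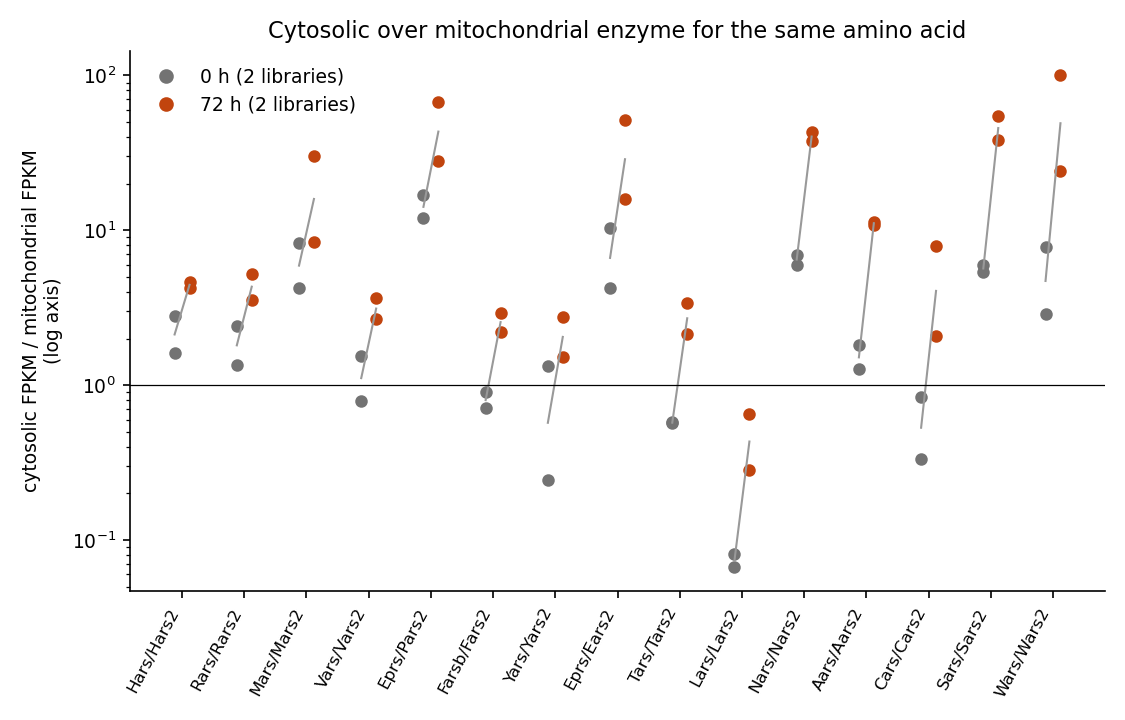
Ratio of cytosolic to mitochondrial FPKM on a log axis for 15 pairs of enzymes for the same amino acid, at 0 h (grey) and 72 h (orange). Each point is 1 library, lines join the means of log ratios, and the horizontal line is a ratio of 1. In 15 of 15 pairs both orange points lie above both grey points.

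Partners of the synthetases were read from lists chosen with earlier results of these data known, and none of these counts is independent support. Those without scaling are to be read against the 46.9% of all genes higher and 9.10% lower at 72 h. Counts under a scaling have no share of all genes beside them here. All 3 scaffolds of the multisynthetase complex were higher at 72 h in limma, among them Eef1e1 (log2 change 2.13) and Aimp2 (1.09), but 1 of 3 under either scaling. Of 6 cytosolic elongation factors, 4 were higher and 0 lower, led by Eef1a1 (3.32) and Eef1b2 (1.2001). Under median-of-ratios scaling 1 was higher and 1 lower. Eef1a1 and Eef1a2 both encode the factor that brings charged tRNA to the ribosome. Eef1a1 went from 6.22 and 14.5 FPKM at 0 h to 127 and 86.4 at 72 h. Eef1a2 was far higher, at 744 and 767 FPKM at 0 h, and measured 426 and 586 at 72 h. Of 12 genes of mitochondrial gene expression, 0 were higher and 4 lower. Besides translation factors, the 12 held Lrpprc, and Tfam and Polrmt, which act in mitochondrial transcription. The largest changes were in Lrpprc (-1.09), which stabilizes mitochondrial mRNA, and Tufm (-0.96), the mitochondrial elongation factor. The lower count was 8 under median-of-ratios and 7 under quantile scaling. The median log2 change over the 12 was then -1.11 and -0.98, against 0.041 and 0.12 over all genes. Among 4 genes that complete charged mitochondrial tRNA, 2 were higher, a share near that of all genes, and 1 lower. Qrsl1, a subunit of the amidotransferase that makes mitochondrial glutaminyl-tRNA, fell by 1.18 on the log2 scale, and Mtfmt, which formylates the initiator methionyl-tRNA, rose by 0.98. Under either scaling 0 were higher and 2 lower.

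Of 30 tested genes of the ATF4 pathway, 15 were higher at 24 h, 23 at 48 h and 26 at 72 h, and 2 were lower at each time. Of all genes, 15.5% were higher at 24 h, 35.3% at 48 h and 46.9% at 72 h, and 2.60%, 7.23% and 9.10% were lower. The median log2 change at 72 h was 2.54, against 0.76 over all genes. Gdf15, a secreted stress hormone, and Mthfd2, a mitochondrial folate enzyme, had the largest changes, 7.40 and 6.23. Mthfd2 and some others of the 30 were under 1 FPKM in both 0 h libraries, so the filter kept them through cultured libraries. Without the filter 13, 20 and 25 of 33 genes were higher at 24, 48 and 72 h, and 1, 2 and 2 lower. The share of all genes is not given for that fit. Atf4 itself, named after its values were seen, went from 63.9 ± 6.89 to 491 ± 103 FPKM (SD, n = 2), a log2 change of 2.91. The 2 lower genes at 72 h, also named after their values were seen, were Vldlr (-1.12) and Atf3 (-0.90). Of 13 genes of MYC and growth, 12 were higher at 72 h, led by the nucleolar proteins Nop58 (2.56) and Nop56 (2.31), and 0 were lower. Under median-of-ratios scaling the counts at 72 h were 21 higher and 2 lower for the ATF4 pathway and 8 higher for MYC and growth. The median log2 changes of these lists were then 1.75 and 0.99, against 0.041 over all genes. The shares of all genes called under that scaling are not given here.

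Cell type markers moved over the same hours. Cardiomyocyte markers, 6 of 8 in the table, summed to between 14327 and 14432 FPKM at 24 h, 7986 and 9051 at 48 h, and 2763 and 3038 at 72 h. Macrophage markers went from 2.01 to 2.54 FPKM at 0 h to between 83.8 and 137 FPKM at 72 h, with 5 of 8 under 1 FPKM in both 72 h libraries. The 3 macrophage markers that could be tested were all higher at 72 h in limma, against 46.9% of all genes. Csf1r and Lyz2 were under 1 FPKM in both 0 h libraries, so the filter kept them through later libraries. The count of 3 is therefore no support for a rise. Without the filter 2 of 8 were higher, and the share of all genes is not given for that fit. Cd68, a lysosomal protein, went from 1.08 and 0.398 to 127 and 70.5 FPKM (log2 change 5.81), Csf1r, a growth factor receptor, from 0.373 and 0.154 to 6.58 and 7.39 (2.66), and Lyz2, a lysozyme, from 0.694 and 0.414 to 2.49 and 4.79 (1.54). The leukocyte marker Ptprc measured 0.00971 and 0.0375 FPKM at 72 h. Fibroblast markers summed to between 11.2 and 17.8 FPKM at 0 h and between 20.4 and 23.1 at 72 h, endothelial markers went from between 27.3 and 53.0 to between 8.30 and 20.2, and smooth muscle markers from between 74.4 and 114 to between 8.70 and 12.1. Lung epithelial markers stayed between 0 and 0.0772 FPKM. The part of these cell type markers in the synthetase changes was not tested.

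Across all 16 groups the cytosolic median was highest in the 48 h and 72 h explants. In the 0 h explants it was 16.9 FPKM, below the 23.8 FPKM of P0 ventricle. The group mean was highest in 72 h explants for 15 of 18 cytosolic members, in 48 h explants for Lars and Farsb, and in day 1 sham ventricle for Kars. It was lowest in isolated cells 7 days after sham for 16 of 18. The mitochondrial members had their highest group mean in 9 different groups, and 8 of 16 had their lowest in isolated cells 7 days after sham. Shares of all genes with their highest or lowest mean in these groups are not given here, so these counts do not set the members apart. The ratio of highest to lowest group mean had a median of 7.18 over cytosolic members (range 3.06 to 14.8) and 4.03 over mitochondrial members (range 3.05 to 65.5, the last for Lars2). Over the 16 group means, which mix preparations and share libraries, the median Pearson r was 0.87 among cytosolic members, 0.50 among mitochondrial members and 0.51 between the classes. The order of the 2 class medians was the same in each group, cytosolic above mitochondrial.

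**Figure D4:**
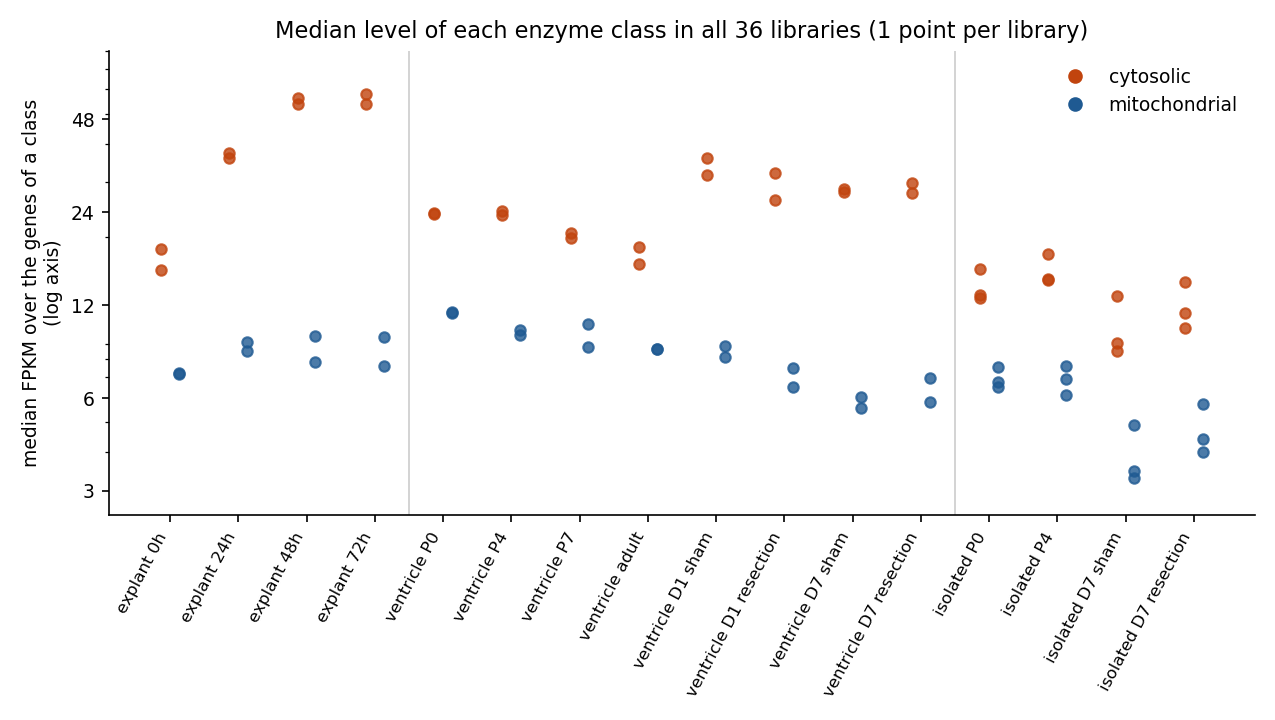
Median FPKM over the 18 cytosolic and the 16 mitochondrial members in each of 36 libraries, on a log axis, by group. Each point is 1 library. The cytosolic points of the 48 h and 72 h explants lie above those of all other groups, and mitochondrial points lie below cytosolic points in every group.

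In unoperated ventricle the cytosolic median went from 23.8 ± 0.176 FPKM at P0 to 23.9 ± 0.420 at P4, 20.2 ± 0.510 at P7 and 17.4 ± 1.54 in the adult (SD, n = 2), and the mitochondrial median from 11.4 ± 0.0659 to 9.82 ± 0.241, 9.67 ± 1.02 and 8.63 ± 0.0126. P4 and P0 cytosolic medians differed by less than their spread. No member passed at P4 in limma, against 1.35% of all genes changed in either direction, and 1 had an unadjusted p under 0.05: Ears2, the mitochondrial glutamate enzyme (log2 change -0.80, adjusted p 0.067). At P7, Gars (-0.70, adjusted p 0.024) and Ears2 (-1.19, adjusted p 0.0017) were lower in limma, against 8.28% of all genes. Ears2 measured 15.98 and 15.74 FPKM at P0, 8.46 and 8.97 at P4, 6.01 and 6.76 at P7, and 4.38 and 5.12 in the adult. Gars measured 69.7 and 66.2 FPKM at P0, 65.0 and 59.0 at P4, 43.0 and 40.1 at P7, and 27.8 and 32.4 in the adult. Both were lower in each later group without overlap of libraries. Without 1 of the P0 or P7 libraries, Gars no longer passed at P7. Ears2 overlaps Ubfd1 by 90 bases.

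In the adult against P0, 7 cytosolic members were lower and 0 higher, and 2 mitochondrial members were lower and 1 higher in limma, against 43.8% of all genes lower and 13.4% higher. The lower share of cytosolic members lay near the background. Gars (-1.15, adjusted p 0.00016) and Sars (-0.58, adjusted p 0.020) fell most among cytosolic members, followed by Rars (-0.49), Hars (-0.48), Tars (-0.44), Yars (-0.37) and Lars (-0.35). Sars measured 47.9 and 40.2 FPKM at P0 and 28.7 and 29.3 in the adult, and its groups did not overlap. Ears2 fell by 1.56 on the log2 scale (adjusted p 2.5e-05) and Wars2 by 0.74 (adjusted p 0.0018 in limma), while Cars2, the mitochondrial cysteine enzyme, rose by 0.47 (adjusted p 0.012), from 12.6 and 11.2 to 16.2 and 17.6 FPKM. Wars2 went from 3.70 and 4.39 FPKM to 2.11 and 1.93. The medians were -0.36 over cytosolic members, -0.07 over mitochondrial members and -0.36 over all genes.

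The split of adult calls depended on scaling, which moved the median of all genes by 0.36. Under median-of-ratios scaling 2 cytosolic members were higher and 1 lower, and 7 mitochondrial members were higher and 1 lower. Under quantile normalization 1 cytosolic member was higher and 2 lower, and 6 mitochondrial members were higher and 1 lower. Lars (0.094) and Yars (0.056) changed sign under the first. Gars and Ears2 kept their calls under both. Shares of all genes called under these scalings are not given here. The 10 calls were 5 without replicate 1 of the adult group and 6 without replicate 1 of the P0 group. Of 28 ATF4 pathway genes, 8 were higher and 11 lower in the adult, and of 14 genes of MYC and growth, 9 were lower. Without scaling, 13.4% of all genes were higher and 43.8% lower, so the lower share of the ATF4 pathway lay near the background. Fibroblast marker sums are given above, while macrophage markers went from between 24.8 and 32.3 to between 124 and 163 FPKM, and their part in these results was not tested.

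At day 1 after surgery, 2 cytosolic members (Mars and Cars) and 3 mitochondrial members (Lars2, Hars2 and Ears2) were lower in resected than in sham ventricle in limma, and none was higher, against 8.91% of all genes lower. Mars measured 19.1 and 13.9 FPKM after sham and 9.50 and 9.39 after resection (log2 change -0.73, adjusted p 0.013). Cars measured 14.5 and 14.9 against 6.44 and 11.2 FPKM (log2 change -0.72, adjusted p 0.036). For both, the libraries did not overlap, and the resected pair was even for Mars and wide for Cars. Hars2, the mitochondrial histidine enzyme, measured 20.8 and 16.9 against 8.75 and 12.5 FPKM (log2 change -0.79, adjusted p 0.015). Ears2 measured 14.1 and 12.4 against 6.18 and 10.04 FPKM (log2 change -0.67, adjusted p 0.045). Lars2 measured 806 and 709 against 266 and 375 FPKM (log2 change -1.26, adjusted p 0.012). Hars2 overlaps Hars by 199 bases, which leaves reads between this pair uncertain. The Lars2 level is uncertain too, since AC125254.1, the gene model that overlaps it, was listed at 0 in all day 1 libraries.

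These day 1 calls rested on single libraries. Without replicate 1 of the sham group 0 members passed in limma, without replicate 2 of it 2, without replicate 1 of the resected group 1, and without replicate 2 of it 13. Medians were -0.31 over cytosolic members, -0.12 over mitochondrial members and -0.16 over all genes. Macrophage markers were lower after resection as well, 6 of 8 passing the test, with sums between 78.8 and 123 FPKM after sham and between 29.1 and 31.8 after resection. Their part in the synthetase differences was not tested. Of 28 ATF4 pathway genes, 0 were higher and 3 lower on that day, where 8.91% of all genes were lower.

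At day 7 after surgery no member passed in limma between resected and sham ventricle, against 0.162% of all genes in either direction. Unadjusted p under 0.05 was reached by 4 members, Aars, Yars, Nars2 and Wars2, with log2 changes of 0.31, 0.29, 0.39 and 0.37. The change in the resection effect from day 1 to day 7 was tested on its own: Ears2 (1.08, adjusted p 0.038) and Nars2, the mitochondrial asparagine enzyme (0.73, adjusted p 0.042), were higher in this contrast in limma, against 5.66% of all genes. Nars2 measured 8.80 and 10.4 FPKM in day 1 sham, 8.10 and 6.68 in day 1 resected, 6.34 and 6.99 in day 7 sham, and 8.30 and 9.87 in day 7 resected ventricle. Its resected libraries were the lower pair on day 1 and the higher pair on day 7. The count was 15 without replicate 2 of the day 1 resected group and 0 or 1 without any other library. Ears2 measured 3.45 and 3.61 FPKM in day 7 sham and 6.03 and 4.14 in day 7 resected ventricle. Lung epithelial markers summed to between 97.0 and 218 FPKM in the day 7 resected libraries, between 2.57 and 26.2 in day 7 sham, and at most 13.5 on day 1, and their part was not tested.

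Operated and unoperated ventricle were set side by side with no test, since the labels give neither the age at operation nor what else differed between these libraries. All 8 operated libraries lay above all 8 unoperated ones for 6 cytosolic members (Eprs, Lars, Nars, Rars, Yars and Farsb) and for Lars2, and below them for Vars and for 5 mitochondrial members (Aars2, Cars2, Sars2, Tars2 and Vars2). Of all genes tested in ventricle, 10.0% lay above and 13.9% below in this way. The ranges were 266 to 923 against 116 to 261 FPKM for Lars2, 0.606 to 1.56 against 4.99 to 7.45 for Sars2, and 1.29 to 2.69 against 7.01 to 9.33 for Aars2. AC125254.1, the gene model that overlaps Lars2, was listed at 0 in all 8 operated libraries and measured between 75.0 and 218 FPKM in the unoperated ones.

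In isolated neonatal cardiomyocytes no member passed between P4 and P0 in limma (1 with an unadjusted p under 0.05, Wars2 at -0.33), where 0.00765% of all genes changed in either direction. None passed between resection and sham at day 7 (0 with an unadjusted p under 0.05), against 1.09% of all genes. Cytosolic medians were 13.8 ± 1.72 FPKM at P0, 15.5 ± 1.71 at P4, 10.2 ± 2.38 after sham and 11.9 ± 2.11 after resection (SD, n = 3). Mitochondrial medians were 6.95 ± 0.525, 6.92 ± 0.775, 3.98 ± 0.878 and 4.76 ± 0.950 FPKM. Libraries overlapped between P0 and P4, and between sham and resection, for both class medians. Erythroid markers in isolated cells summed to between 565 and 12051 FPKM at P0 and between 221 and 967 at P4. Their sums were between 2176 and 3009 FPKM after sham and between 2933 and 40386 after resection. Cardiomyocyte markers in the resection group summed to between 4969 and 12502.5 FPKM, and endothelial markers to between 17.0 and 388. The part of these markers in the isolated cell values was not tested. The difference between the day 7 resection effect in isolated cells and that in ventricle passed for 0 members in limma (0 with an unadjusted p under 0.05), against 0.0809% of all genes.

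**Figure D5:**
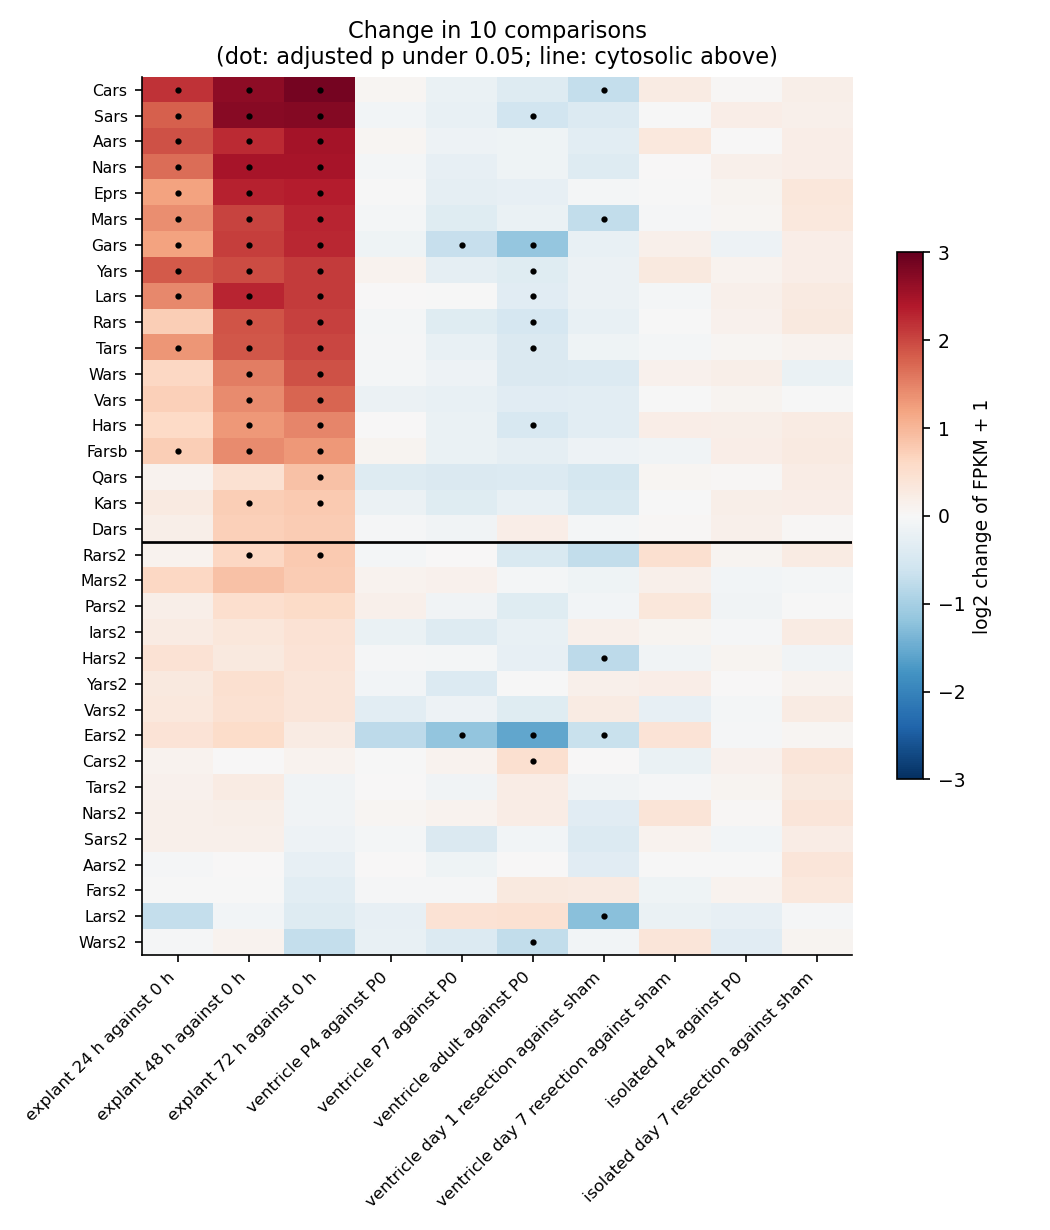
Log2 change of FPKM + 1 for the 34 members (rows, cytosolic above the line) in 10 comparisons (columns), in colour from -3 to 3, with a dot where the adjusted p in limma is under 0.05. Dots fill the cytosolic rows of the explant columns (11, 16 and 17), are rare in mitochondrial rows, and are missing from both isolated cell columns.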

How the data were processed

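The authors deposited 1 table of FPKM values for 36 libraries of total RNA, prepared with Trizol and sequenced on Illumina instruments, per the labels' protocols. Libraries were made by 1 of 2 protocols, and which library came from which is not given in the sources used here. The genome build was mm9 and the tools were TopHat 1.3.2, Bowtie 0.12.7, Cuffdiff and Cufflinks 1.2.1, per the submitters' processing notes. The annotation and the use of strand in counting are not given in the sources used here, so overlapping genes are uncertain. FPKM are not counts, and the depth per library is unknown.

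From 36128 rows, the row with the highest mean FPKM was kept for each of 32750 symbols. Log2(FPKM + 1) was fitted with limma 3.58.1 (R 4.3.3; group means, variance trend), once per preparation, on genes with at least 1 FPKM in at least 2 libraries of the fit: 12181 in explants, 14201 in ventricle, 13080 in isolated cells and 14834 over all libraries. A fold change on this scale understates the change of low genes. Changes with a two-sided Benjamini-Hochberg adjusted p under 0.05 over all genes of the fit were called, and the fit was tested on simulated data. The members and lists were chosen with earlier results of these data known, so no p-value is adjusted over a list and none is given for a class. Named were all called members where at most 12 were called, otherwise up to 8 of each class by size of change, and per list the 2 called genes with the largest change, given at 72 h. Members called in explants were given in every explant library.

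Replicate numbers come from the sample titles. Same-numbered explant libraries deviated together from their group means (correlations between 0.383 and 0.623 in 6 pairs of groups), and a fit with the number as a block was run beside the other. In ventricle 4 of 56 and in isolated cells 6 of 18 such correlations exceeded 0.1. The alternatives tried were no filter, quantile or median-of-ratios scaling, 0.1 as the pseudocount, summed rows per symbol, no variance trend, a single fit of all libraries, and each library left out in turn. Promoter windows came from RefSeq on GRCm38.p6, and no coordinate was moved between builds.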

Additional observations from a re-analysis of the deposited data

Results flagged for a closer look

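The effect of resection on 2 mitochondrial members differed between the days after surgery in ventricle. These 2 of 34 members are a share near the 5.66% of all genes higher in this contrast. The count therefore does not set the members apart. For Ears2 the resection effect was -0.67 on day 1 and 0.41 on day 7 on the log2 scale, and the difference of 1.08 (SE 0.27) had an adjusted p of 0.038 in limma. For Nars2 the effects were -0.34 and 0.39, and the difference of 0.73 (SE 0.19) had an adjusted p of 0.042. Neither day 7 effect passed the test on its own, and neither difference passed under median-of-ratios or quantile scaling. The cause was not tested.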

How the results depend on the processing

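With 2 libraries in most groups, the calls rest on few values. Leaving out each library in turn gave 0 to 6 members at 24 h (11 with all), 14 to 15 at 48 h (17) and 16 to 20 at 72 h (18) of culture, 1 to 2 at P7 (2), 5 to 8 in the adult (10), 0 to 13 at day 1 after surgery (5), 0 to 15 for the day 7 minus day 1 effect (2), and 0 to 0 elsewhere. The cytosolic minus mitochondrial median log2 change ranged from 0.91 to 1.24 at 24 h (1.06 with all libraries), 1.38 to 1.92 at 48 h (1.65) and 1.64 to 2.38 at 72 h (1.90). It ranged from -0.0074 to 0.044 at P4, -0.21 to -0.07 at P7, -0.37 to -0.16 in the adult, -0.28 to -0.050 at day 1 and -0.09 to -0.03 at day 7 after surgery. In isolated cells the range was 0.07 to 0.13 for P4 and -0.11 to 0.082 for day 7, and -0.023 to 0.19 for isolated cells minus ventricle and -0.092 to 0.19 for day 7 minus day 1. A group left with 1 library is assumed to vary like the others.

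Without the filter on low values 1 member passed at P7, 3 at day 1 and 0 in the day 7 minus day 1 effect. With median-of-ratios scaling 3 passed at day 1 and 0 in the latter, with quantile scaling 1 at P4 (Ears2), 1 at day 1 and 0 in the latter, and with a single fit of all libraries 0 at P7, 6 in the adult, 1 at day 1 and 0 in the latter. The class difference of the latter effect (0.03) was -0.11 with a pseudocount of 0.1 and -0.078 with median-of-ratios scaling. Quantile scaling moved the class difference to 1.196 at 24 h and to -0.39 in the adult (-0.29). Signs changed under median-of-ratios scaling for Rars2 at 48 h (-0.055) and 72 h (-0.066), Kars (-0.12) and Qars (-0.011) at 72 h, and Lars (0.094) and Yars (0.056) in the adult, and under quantile scaling for Rars2 at 48 h (-0.010). The cause was not tested.

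Blocking on the replicate number, 14, 20 and 22 members passed at 24, 48 and 72 h of culture, 3 at P7, 12 in the adult, 4 at day 1 (Ears2 lost its call) and 1 in the day 7 minus day 1 effect (Nars2 lost its call). In the other comparisons 0 members passed with the block. Shares of all genes called with the block are not given here, so these counts have no background beside them.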
